A study of Mus musculus with 7 samples.

Results

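The isoforms of glucose transport, glucose phosphorylation, phosphofructokinase, pyruvate kinase and lactate dehydrogenase were examined in aged mouse left ventricle, as 10 listed genes: Slc2a1, Slc2a4, Hk1, Hk2, Pfkm, Pfkl, Pfkp, Pkm, Ldha and Ldhb. Every probe set that the array annotation assigned to exactly 1 of these genes was taken, which gave 19 of 22626 probe sets and 10 of 12393 named genes. A further probe set shared between Hk1 and ribosomal protein genes was left unnamed and was not used. The tissue came from male mice aged 21 months, with 1 MOE430A oligonucleotide array per mouse. The eNOS (-/-) group, which lacks endothelial nitric oxide synthase by its labels, held mice M4, M10 and M140. The (+/+) wild-type group held mice M23, M125, M128 and M158. The labels state neither the strain nor how the knockout was made. They carry exercise as a keyword for every mouse and tell none apart by it. The study asked which transcripts differ in the failing heart of old knockout males.

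Cardiac muscle takes up glucose through the basal transporter GLUT1 (Slc2a1), which prevails before birth, and the insulin-responsive transporter GLUT4 (Slc2a4), which prevails in the adult. Hexokinase 1 (Hk1) and the platelet and liver types of phosphofructokinase (Pfkp, Pfkl) are likewise more prominent in fetal or growing tissue, whereas hexokinase 2 (Hk2) and the muscle type (Pfkm) are the adult forms in striated muscle. Lactate dehydrogenase A (Ldha) favours lactate formation and lactate dehydrogenase B (Ldhb), the heart type, favours lactate use. A return towards fetal isoforms is a textbook feature of the overloaded heart, which is the background to the comparison.

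The 250 bases upstream of the annotated start of Slc2a1, Pfkp and Hk2 are shown because Slc2a1 and Pfkp were 2 of the 3 members whose knockout arrays all lay above the wild-type arrays, while Hk2 is an adult form. They are RefSeq sequences of build GRCm38.p6, at chr4:119108495-119108744 on the plus strand, chr13:6648772-6649021 on the minus strand and chr6:82774455-82774704 on the minus strand. Capitals mark the letters ACGTG, a form of the core bound by hypoxia-inducible factor, and GGGCGG, the GC box bound by Sp1. Each was searched on both strands. Other forms of that core were not searched, and the letters GCGTG do occur in the Pfkp window and, on the other strand, in the Slc2a1 window.
Slc2a1: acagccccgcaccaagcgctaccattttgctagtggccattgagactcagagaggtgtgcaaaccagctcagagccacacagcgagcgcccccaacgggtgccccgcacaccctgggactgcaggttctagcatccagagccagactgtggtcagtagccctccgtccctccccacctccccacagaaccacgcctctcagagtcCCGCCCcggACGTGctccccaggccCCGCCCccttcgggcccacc
Pfkp: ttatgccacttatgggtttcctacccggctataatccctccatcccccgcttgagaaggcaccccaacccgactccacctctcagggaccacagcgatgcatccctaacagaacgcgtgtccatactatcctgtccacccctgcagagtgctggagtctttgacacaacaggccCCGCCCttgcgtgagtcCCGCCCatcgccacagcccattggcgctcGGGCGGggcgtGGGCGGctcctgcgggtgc
Hk2: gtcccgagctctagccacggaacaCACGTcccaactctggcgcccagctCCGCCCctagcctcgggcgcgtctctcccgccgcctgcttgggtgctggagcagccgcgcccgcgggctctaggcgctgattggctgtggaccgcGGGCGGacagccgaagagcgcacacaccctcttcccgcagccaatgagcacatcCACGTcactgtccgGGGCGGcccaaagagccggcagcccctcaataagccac
The Slc2a1 window held ACGTG once and the Hk2 window held it 2 times, whereas these letters were not in the Pfkp window, which held 4 GC boxes. The windows of Hk1, the third member whose knockout arrays all lay higher, are not shown and held neither ACGTG nor GGGCGG, though GCGTG occurs among them. RefSeq windows were found for 9 of the members, 15 in all since some genes have several starts. No window was found for Slc2a4, which was therefore not searched for any of these letters. ACGTG was found in 6 of the 15 windows, belonging to 5 genes, against 16.6% of 32851 windows of the same length over all genes. GGGCGG was found in 5 of the 15 windows, against 32.7% of all. Matches to the E-box letters CACGTG, which contain ACGTG on each strand, were found in 2 windows, against 6.02% of all. The MEF2 motif matched in 0 of these windows, which do not include Slc2a4, against 1.69% of all. These matches describe letters and do not show binding.

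Values were intensities on a linear scale as deposited, and array medians ran from 671 to 699, with a ceiling at 44145 to 45552. With 3 and 4 mice, each numbered separately, the number of arrays limits the precision. Of the 19 probe sets, 17 were bright enough to be tested and 2, of Hk1 and Pfkp, were not. The targeted transcript Nos3 read 1145, 1413 and 1135 on knockout M4, M10 and M140, and 791, 1163, 872 and 1058 in wild-type mice M23, M125, M128 and M158, and was thus not lower on the knockout arrays. No source says whether this probe set lies inside the deleted stretch, and it therefore does not check the labels. The ratio of 5' to 3' signal of the Gapdh control, a sign of RNA length, was 0.0978 on wild-type M23 and 0.340 on wild-type M158, both hybridized on the last of 4 days, and 0.521 to 0.777 on the other arrays. Its 3' probe set was at or close to the upper limit throughout. All 8 cardiomyocyte markers were measured and 6 of them, at their representative probe sets, reached the ceiling of 1 array or more, so that the tissue was bright in heart muscle genes but their sums cannot be compared between groups. Below the ceiling, Ryr2 differed by -0.015 on the log2 scale with overlapping groups. Pln differed by -0.70 without overlap (adjusted p = 0.077 by limma), and by -0.009 to -0.006 at its other tested probe sets.

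None of the 10 genes passed limma's test at an adjusted p of 0.05, and 0% of all 13836 tested probe sets did. At their brightest probe sets, each of the 3 knockout mice exceeded each of the 4 wild-type mice for the fetal-type genes Slc2a1, Hk1 and Pfkp, and the adult transporter Slc2a4 had a lower knockout mean. At an unadjusted p under 0.05 by limma, Hk1 and Pfkp were higher and Slc2a4 was lower, which is 3 of 10 genes, against 12.2% of 8869 tested genes, 6.77% higher and 5.45% lower. Groups that did not overlap were found for 3 of 10 genes, all higher, against 10.2% of tested genes in either direction, 5.29% higher and 4.95% lower. Counted by probe set, 3 of 17 had an unadjusted p under 0.05, against 11.8% of all tested probe sets (6.57% higher, 5.25% lower), and 3 of 17 had groups apart, against 9.3% (4.97% higher, 4.34% lower). The 17 include 4 probe sets of Ldhb at the upper limit, and both counts were 3 of the 13 below it. Over the 10 genes, each by 1 probe set, the median log2 difference was 0.04, against -0.003 over all tested genes. Pfkp kept an unadjusted p under 0.05 with each array left out in turn (0.0012 to 0.0132 by limma). Hk1 lost it without knockout M4, M10 or M140, and without M10 and M125 together. Slc2a4 lost it without knockout M4 or M140, without wild-type M125, M128 or M158, and without M10 and M125 together. It also lost it with hybridization day as a fixed block, with quantile normalization and with a filter at the 60th in place of the 40th percentile of each array.

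**Figure D1:**
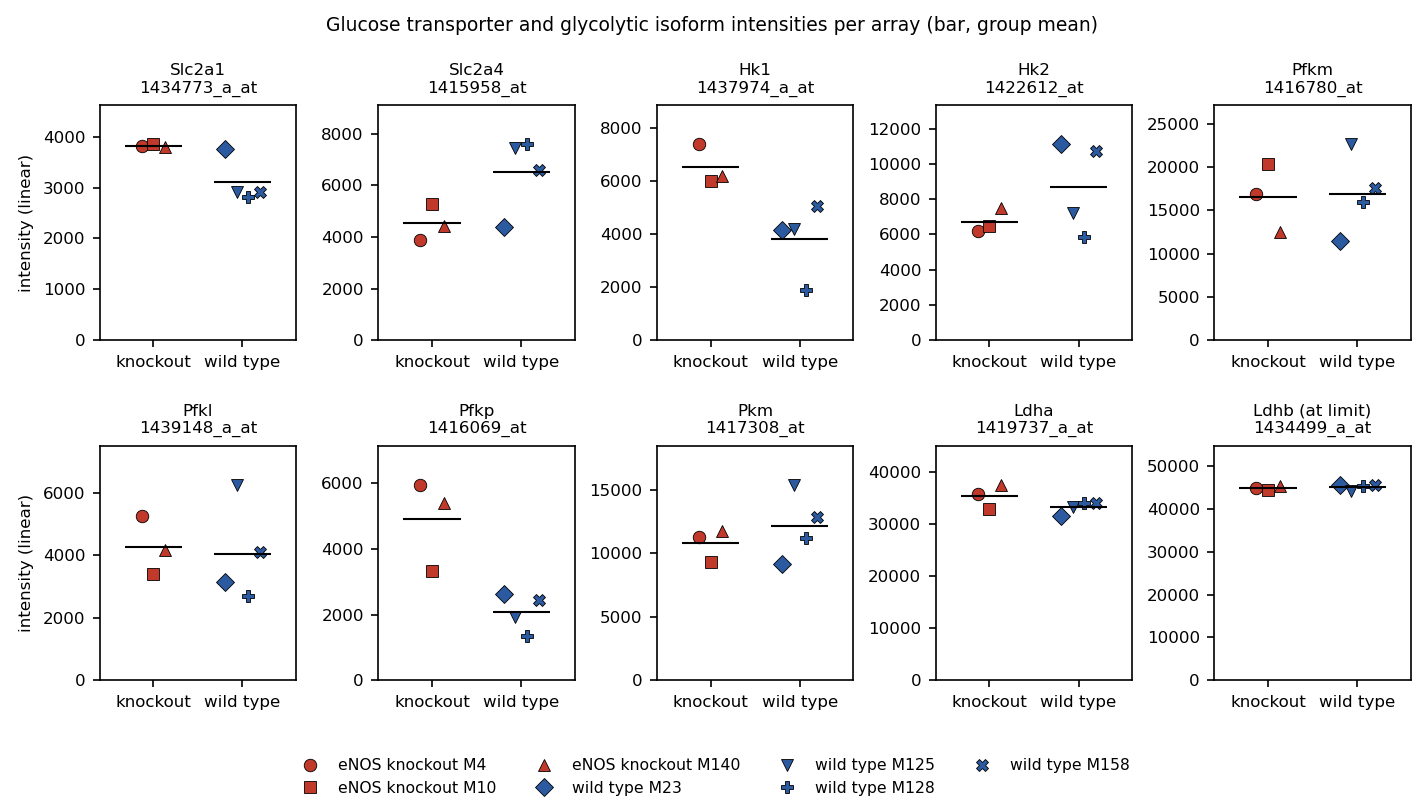
Intensity (linear scale) of the 10 genes, each at its representative probe set, on every array, with the eNOS knockout mice on the left and the wild-type mice on the right of each panel and a bar at the group mean. Slc2a1, Hk1 and Pfkp separate the groups, Slc2a4 does so except for wild-type M23, and Ldhb is at the top of the scale for all 7 mice.

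Of the transporters, Slc2a1 was read by 3 probe sets. The brightest, 1434773_a_at, read 3821, 3852 and 3792 on knockout M4, M10 and M140, against 3766, 2923, 2822 and 2911 in wild-type mice M23, M125, M128 and M158. The knockout arrays lay within a narrow band above all wild-type arrays, but wild-type M23 missed that band by little. Knockout mice averaged 3822 ± 30.0 (SD, n = 3) and wild-type mice 3105 ± 442 (SD, n = 4). The log2 difference was 0.31 ± 0.14 (SE; adjusted p = 0.438 by limma). Probe set 1426599_a_at read 1597, 1487 and 1551 on knockout arrays and 1552, 1199, 1154 and 1487 on wild-type arrays, with M23 and M158 inside the knockout range. The third, 1426600_at, read 932, 977 and 1069 on knockout arrays and 853, 959, 955 and 807 on wild-type arrays. These 2 had log2 differences of 0.21 and 0.15 (adjusted p = 0.587 and 0.580 by limma), so that the sign was shared by all 3 probe sets of Slc2a1.

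The insulin-responsive transporter Slc2a4 read 3895, 5278 and 4428 on knockout M4, M10 and M140 at its brighter probe set 1415958_at, against 4401, 7454, 7594 and 6597 in wild-type mice M23, M125, M128 and M158. All knockout arrays lay below wild-type M125, M128 and M158, whereas M23 lay among the knockout arrays. Knockout mice averaged 4533 ± 698 (SD, n = 3) and wild-type mice 6511 ± 1474 (SD, n = 4). The log2 difference was -0.50 ± 0.22 (SE; adjusted p = 0.422 by limma), and -0.78 for knockout M140 minus wild-type M128 of 1 day. The dim probe set 1415959_at read 525 to 696 on knockout arrays and 538 to 921 on wild-type arrays, with overlapping groups and a log2 difference of -0.18. It lay close to the threshold for testing on its dimmest array, at the 40.5th percentile.

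Hexokinase 1, the main form in brain and in the fetal heart, read 7363, 5971 and 6177 on knockout M4, M10 and M140 at probe set 1437974_a_at. Its wild-type values were 4128, 4163, 1895 and 5047 for M23, M125, M128 and M158. The groups did not overlap, and wild-type M128 was far below the others. Knockout mice averaged 6504 ± 751 (SD, n = 3) and wild-type mice 3808 ± 1344 (SD, n = 4). On the log2 scale they differed by 0.85 ± 0.32 (SE; adjusted p = 0.372 by limma). Without wild-type M128 the difference was 0.55, and within the hybridization day of M140 and M128 it was 1.70. The other probe set of Hk1, 1420901_a_at, was too dim to test and read 442 to 490 on knockout arrays and 345 to 546 on wild-type arrays.

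Hexokinase 2, the insulin-regulated form of adult muscle, was read by the single probe set 1422612_at. It read 6183, 6468 and 7505 on knockout M4, M10 and M140, against 11106, 7214, 5834 and 10707 in wild-type mice M23, M125, M128 and M158. Wild-type M23 and M158, whose Gapdh ratios were lowest, were well above the rest, while wild-type M125 lay inside the knockout range and M128 below it. The log2 difference was -0.33 ± 0.24 (SE; adjusted p = 0.657 by limma), and it was 0.045 without M23 and M158 and 0.36 for knockout M140 minus wild-type M128 of the same hybridization day. The direction for Hk2 thus turned with these arrays, and the part of RNA quality in it was not tested.

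Of the phosphofructokinases, which catalyse the committed step of glycolysis, the platelet type Pfkp differed most. Its probe set 1416069_at read 5943, 3339 and 5401 on knockout M4, M10 and M140, against 2637, 1914, 1352 and 2455 in wild-type mice M23, M125, M128 and M158. The groups were apart, with M10 the lowest knockout array. Knockout mice averaged 4894 ± 1374 (SD, n = 3) and wild-type mice 2089 ± 579 (SD, n = 4). On the log2 scale they differed by 1.22 ± 0.28 (SE; adjusted p = 0.214 by limma), which placed it at rank 161 of 13836 tested probe sets by p. With limma array weights its difference was 1.27 (adjusted p = 0.0307, the lowest of 19 settings that reached up to 0.763), a fit in which 619 probe sets, 4.47% of those tested, passed the same threshold. The second Pfkp probe set, 1430634_a_at, was at the dim end of each array, between the 21.4th and the 23.7th percentile, and read 318 to 332 on knockout arrays and 306 to 339 on wild-type arrays.

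The muscle type Pfkm read 16863, 20373 and 12437 on knockout M4, M10 and M140, and 11439, 22618, 15990 and 17596 in wild-type mice M23, M125, M128 and M158. The groups spanned nearly the same range, and the log2 difference was -0.018 ± 0.243 (SE; adjusted p = 0.988 by limma). The liver type Pfkl read 5256, 3401 and 4173 on knockout arrays at 1439148_a_at, against 3135, 6255, 2710 and 4102 on wild-type arrays, with wild-type M125 highest and M128 lowest of all 7. Its 2 probe sets had log2 differences of 0.13 ± 0.29 and 0.16 ± 0.20 (SE; adjusted p = 0.912 and 0.820 by limma). Among the 3 types, the groups were thus apart for Pfkp and overlapped for Pfkl and Pfkm.

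Pyruvate kinase M (Pkm) makes the adult M1 and the fetal M2 form by alternative splicing, and its single probe set 1417308_at gives 1 value for the gene. It read 11310, 9321 and 11777 on knockout M4, M10 and M140, and 9170, 15387, 11199 and 12845 in wild-type mice M23, M125, M128 and M158. The groups overlapped, with a log2 difference of -0.15 ± 0.18 (SE; adjusted p = 0.813 by limma). Ldha read 35807, 32894 and 37614 on knockout arrays and 31641, 33341, 34207 and 34207 on wild-type arrays, which was 69.5% to 82.6% of the upper limit of each array. Its log2 difference was 0.09 ± 0.06 (SE; adjusted p = 0.650 by limma), and knockout M10 lay among the wild-type arrays. All 4 probe sets of Ldhb read between 98.1% and 100% of the upper limit on every array, so that they give no fold and the change of Ldha against Ldhb cannot be read from these arrays.

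**Figure D2:**
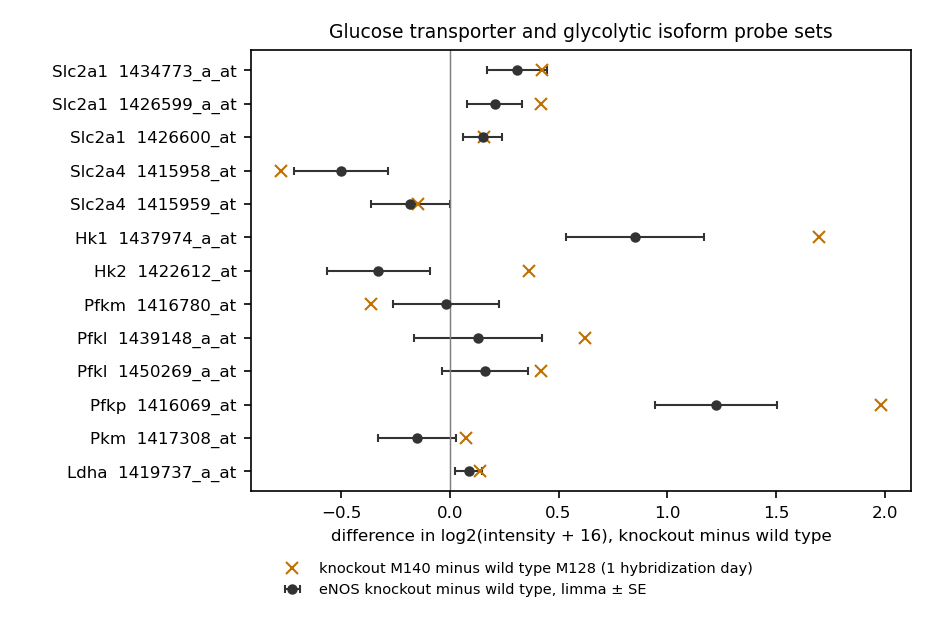
Difference in log2(intensity + 16), eNOS knockout minus wild type, for the 13 probe sets that were tested and lay below the upper limit, as limma estimates with standard errors (black) and as the single pair of 1 hybridization day, knockout M140 minus wild-type M128 (crosses). The pair shows 1.99 for Pfkp and 1.70 for Hk1 and lies on the opposite side of 0 from the estimate for Hk2 and Pkm.

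To compare fetal with adult isoforms, the log2 value of the adult form was subtracted from that of the fetal form within each array. These differences compare arrays and not the amounts of both transcripts, since probe sets of different genes differ in brightness. There were 5 differences, compared by exact two-sided permutation of the group labels (35 arrangements of the 7 arrays, smallest reachable p 0.0286), with Benjamini-Hochberg adjustment over the 5. None passed an adjusted p of 0.05, and the members had been picked with earlier results of these arrays known.

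Hk1 minus Hk2 was 0.25, -0.12 and -0.28 on knockout M4, M10 and M140, against -1.42, -0.79, -1.61 and -1.08 in wild-type mice M23, M125, M128 and M158. Every knockout value exceeded every wild-type value, by 1.18 in the mean, which is a 2.27-fold shift of the ratio (exact permutation p = 0.0286, the smallest possible, adjusted p = 0.143). It was the only one of the 5 differences in which the groups did not overlap. It was 1.33 within the hybridization day that held both groups, 1.15 without M23 and M158 and 1.36 without M10 and M125.

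Slc2a1 minus Slc2a4 was -0.03, -0.45 and -0.22 on knockout M4, M10 and M140, against -0.22, -1.35, -1.42 and -1.18 in wild-type mice M23, M125, M128 and M158. The other wild-type arrays lay below every knockout array, and wild-type M23 lay inside the knockout range. The means differed by 0.81, a 1.75-fold shift of the ratio (exact permutation p = 0.0857, adjusted p = 0.190). The knockout mean was -0.23 ± 0.21 (SD, n = 3), against -1.04 ± 0.56 (SD, n = 4) for all wild-type mice. Without M23 the wild-type mean was -1.31 ± 0.13 (SD, n = 3). The difference was then 1.08 (exact permutation p = 0.1, the smallest possible with 3 against 3). With the tested probe sets of each gene averaged, it was 0.56 over all 7 arrays (exact permutation p = 0.114).

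Pfkp minus Pfkm was -1.50, -2.60 and -1.20 on knockout M4, M10 and M140, against -2.11, -3.55, -3.55 and -2.83 in wild-type mice M23, M125, M128 and M158. Knockout M10 lay below wild-type M23, so that the groups overlapped, with a mean difference of 1.24 (exact permutation p = 0.114, adjusted p = 0.190). It was 2.35 within the hybridization day that held both groups. Pfkl minus Pfkm differed by 0.15, with overlapping groups (exact permutation p = 0.629, adjusted p = 0.629), and by 0.98 within that day. Ldha minus Ldhb differed by 0.095 (exact permutation p = 0.200, adjusted p = 0.250), which reflects Ldha against the upper limit.

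**Figure D3:**
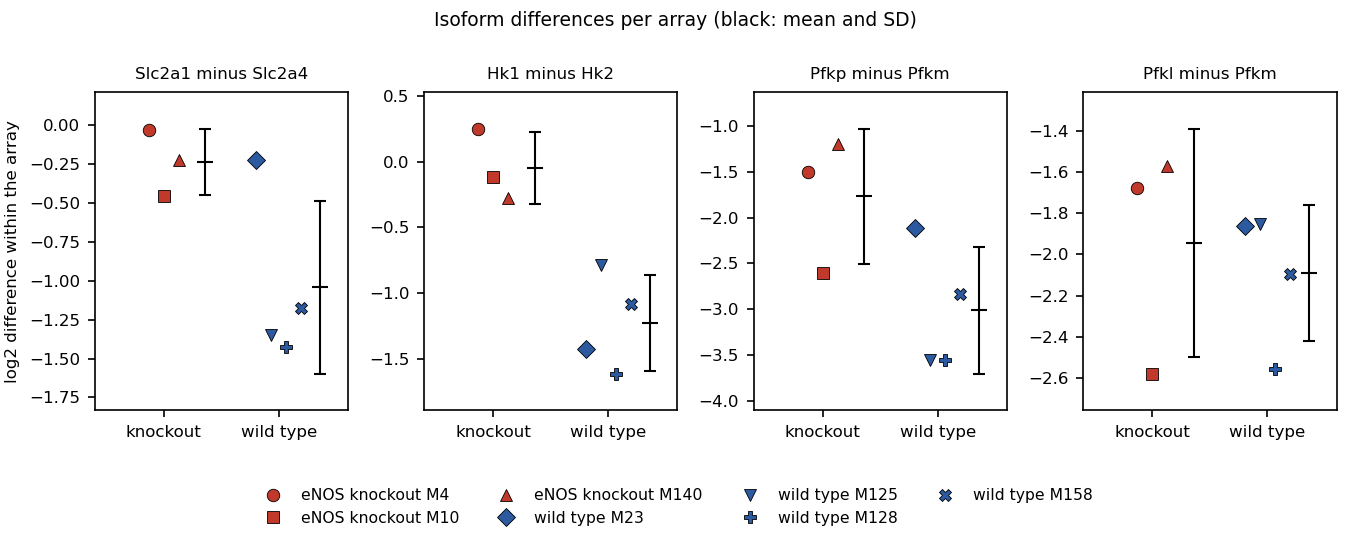
Log2 difference within each array between the fetal and the adult isoform for the 4 pairs below the upper limit, with eNOS knockout mice left of wild-type mice and the mean and SD of each group in black. Hk1 minus Hk2 separates the groups, and wild-type M23 lies inside or close to the knockout range for Slc2a1 minus Slc2a4 and Pfkp minus Pfkm.

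Arrays differed among themselves in a recurring way. Wild-type M23 had the highest wild-type value of Slc2a1 (1434773_a_at) and Pfkp and the lowest wild-type value of Slc2a4 (1415958_at), Pfkm, Pkm and Ldha, and it also had the lowest Gapdh ratio. The experiment sheet of M23 alone records that repeated processing of the sample was combined. Wild-type M128 had the lowest value of all 7 arrays for Hk1 (1437974_a_at), Hk2, Pfkp and both probe sets of Pfkl. Among knockout arrays, M10 was the lowest for Hk1 (1437974_a_at), Pfkp, Pkm, Ldha and both probe sets of Pfkl, and the highest for Slc2a4 (1415958_at) and Pfkm. M10 also carried much atrial transcript, with Myl7, the atrial myosin light chain, at 17557, against 1207 on knockout M4 and 407 on knockout M140. Wild-type M125 had 16097, and the other wild-type arrays 356 to 2926.

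Hexokinase 1 is also made in the red cell lineage and GLUT1 in endothelium, and in whole tissue fewer cells of a type and less RNA per cell cannot be told apart. The red cell list, with 5 of 8 markers on the array and 3 of them tested, summed to 5980 to 11124 on knockout arrays and 4637 to 5447 on wild-type arrays, without overlap. It was the single one of 10 marker lists whose sums were apart, and Slc4a1 and Hba-a1 of that list were too dim to test. Most of that sum on M4 and M10 was Alas2, the haem synthesis enzyme of red cells, which read 6236, 6484 and 2598 on knockout M4, M10 and M140, and 1649, 1675, 2123 and 2050 on wild-type arrays. Of the other tested markers of the list, Hbb-b2, a beta globin, had groups apart at its brighter probe set (log2 difference 0.41) and differed by -0.039 at another, and Epb42, a red cell membrane protein, differed by -0.13. Hk1 (1437974_a_at) read 7363, 5971 and 6177 on knockout M4, M10 and M140. For both Hk1 and Alas2 every knockout array exceeded every wild-type array. The endothelial list summed to 21656 to 25785 on knockout arrays and 20327 to 27185 on wild-type arrays. The macrophage list summed to 26517 to 34385 and 20696 to 29813 on knockout and wild-type arrays, with 4 of its 8 markers higher with groups apart (5.29% of all tested genes were), and the fibroblast list to 21106 to 94710 and 27467 to 43472. The smooth muscle sums were 11112 to 14337 on knockout arrays and 7584 to 13059 on wild-type arrays. The part of these cells in the values of Slc2a1, Hk1 and Pfkp was not tested.

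Slc2a4 is also made by skeletal muscle and fat. The skeletal muscle list summed to 15559 to 24653 on knockout arrays and 22770 to 37914 on wild-type arrays, with Myh1, Myh4 and Tnnt3 too dim to test. Most of it was Ckm, the muscle creatine kinase that heart muscle also makes. Ckm read 12926 to 22162 on knockout arrays and 20144 to 35211 on wild-type arrays. The fast-muscle genes Myh2, Actn3 and Mylpf differed by 0.04, 0.01 and -0.15 on the log2 scale, all with overlapping groups. Myh2 read 430 to 560 over all arrays, near the threshold for testing. The fat list summed to 36239 to 39409 and 37385 to 44048 on knockout and wild-type arrays, with Adipoq and Lep too dim to test. The atrial list summed to 49346 to 73697 on knockout arrays and 10712 to 76212 on wild-type arrays. Much of it was Nppa, the atrial natriuretic peptide that a stressed ventricle also makes, at 44869, 37741 and 45540 on knockout M4, M10 and M140 and 6717 to 32820 on wild-type arrays, with groups apart and 2 knockout arrays at the upper limit. The nerve list summed to 2036 to 2544 on knockout arrays and 2180 to 2574 on wild-type arrays.

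Other genes of glucose use were read from 7 lists with 70 genes, of which 59 were on the array by name and 49 were tested, each by 1 probe set. By limma 0 of 49 passed an adjusted p of 0.05, and at an unadjusted p under 0.05 there were 4 higher and 3 lower. Of these counts, the higher one was 2 without knockout M4 or wild-type M23 and 7 without knockout M10, and the lower one was 0 without knockout M4 or wild-type M23 and 1 without knockout M140 or wild-type M125 or M128. Groups were apart for 4 higher (Bpgm, Gyg, Gpd1 and Tpi1) and 1 lower (Phkb), and the median log2 difference was 0.03. The 7 of 49 with an unadjusted p under 0.05 stand against 12.2% of all tested genes, and the 5 of 49 with groups apart against 10.2%, so that both are near the share over all genes. The other 11 listed genes were not analysed here.

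In lower glycolysis, 6 of 7 tested genes had a higher knockout mean, against 49.4% of all tested genes, with a median log2 difference of 0.28. That median was the value of Aldoa, an aldolase, which read 18506 on wild-type M23 and 31085 to 39403 on the other arrays. Other tested probe sets of Aldoa differed by -0.002 to 0.053. Bpgm, which makes 2,3-bisphosphoglycerate in red cells, read 3186, 3048 and 1626 on knockout M4, M10 and M140, and 1426, 1386, 1293 and 1550 in wild-type mice M23, M125, M128 and M158. The groups were apart, and the knockout arrays M4 and M10 that were highest for Bpgm were also highest for Alas2. The log2 difference was 0.82 ± 0.23 (SE; adjusted p = 0.269 by limma), and 1.13 without M140, the lowest knockout array (adjusted p = 0.0393). Another tested probe set of Bpgm differed by 0.16. Eno3, the muscle enolase, differed by -0.13 ± 0.05 (SE) and Pgam1, a phosphoglycerate mutase, by 0.45 ± 0.21 (SE), with adjusted p of 0.415 and 0.448 by limma.

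In glycogen metabolism, 9 of 10 tested genes had a higher knockout mean, against 49.4% of all tested genes, with a median log2 difference of 0.31. Gyg, glycogenin, which primes new glycogen, read 4454, 3233 and 3739 on knockout M4, M10 and M140, and 2382, 3134, 2378 and 2608 in wild-type mice M23, M125, M128 and M158. The groups were apart, with a log2 difference of 0.53 ± 0.16 (SE; adjusted p = 0.294 by limma). Gbe1, the branching enzyme, differed by 0.39 ± 0.16 (SE; adjusted p = 0.405), with knockout M10 at 572 among wild-type arrays of 550 to 662 and knockout M4 and M140 at 878 and 914. Phkb, a regulatory subunit of phosphorylase kinase, read 2147, 1746 and 2246 on knockout arrays, all below wild-type arrays of 2305 to 2790, with a log2 difference of -0.32 ± 0.13 (SE; adjusted p = 0.404). With array weights Gyg, Gbe1 and Bpgm had adjusted p of 0.0412, 0.0476 and 0.0470 by limma, in the fit where 4.47% of all tested probe sets passed.

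Of the control of phosphofructokinase by fructose 2,6-bisphosphate, Pfkfb3 and Pfkfb2 were tested and differed by 0.14 and -0.064 on the log2 scale. Among 7 tested transporters of sugars, lactate and pyruvate, 0 had an unadjusted p under 0.05 by limma. Mpc1, of the mitochondrial pyruvate carrier, differed by -0.29 ± 0.20 (SE), the lactate transporter Slc16a1 by 0.076 ± 0.163 (SE), and its chaperone Bsg by 0.29 ± 0.49 (SE), with adjusted p of 0.642, 0.908 and 0.876. Bsg read 7143 on wild-type M23 and 18124 to 33133 on the other arrays.

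In the side paths, Gpd1, which links glycolysis to glycerol phosphate, read 2230, 1813 and 1706 on knockout arrays, all above wild-type arrays of 1324 to 1660 (log2 difference 0.37 ± 0.14, SE; adjusted p = 0.366 by limma). Other tested probe sets of Gpd1 differed by -0.025 to 0.091. Pgd and Tkt of the pentose phosphate pathway differed by 0.25 and 0.18, with adjusted p of 0.710 and 0.691.

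Among 14 tested regulators, 10 had a lower knockout mean, while 49.4% of all tested genes had a higher one. Mef2a, a muscle transcription factor that binds the GLUT4 gene promoter, read 6468, 9168 and 6934 on knockout M4, M10 and M140, and 11181, 8334, 13932 and 10302 in wild-type mice M23, M125, M128 and M158. Knockout M10 lay above wild-type M125, and these 2 arrays carried the most Myl7. The log2 difference was -0.53 ± 0.20 (SE; adjusted p = 0.371 by limma), and the other tested probe sets of Mef2a differed by -0.27 to -0.60. Akt2, the insulin-signalling kinase that directs GLUT4 to the membrane, differed by -0.36 ± 0.16 (SE; adjusted p = 0.437). Txnip, a glucose-induced inhibitor of glucose uptake, differed by -0.29 ± 0.21 (SE; adjusted p = 0.657). Of the factors that direct Pkm splicing, Hnrnpa1, Ptbp1 and Srsf3 differed by 0.15, -0.13 and -0.083, and 0 of 4 had an unadjusted p under 0.05 by limma.

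**Figure D4:**
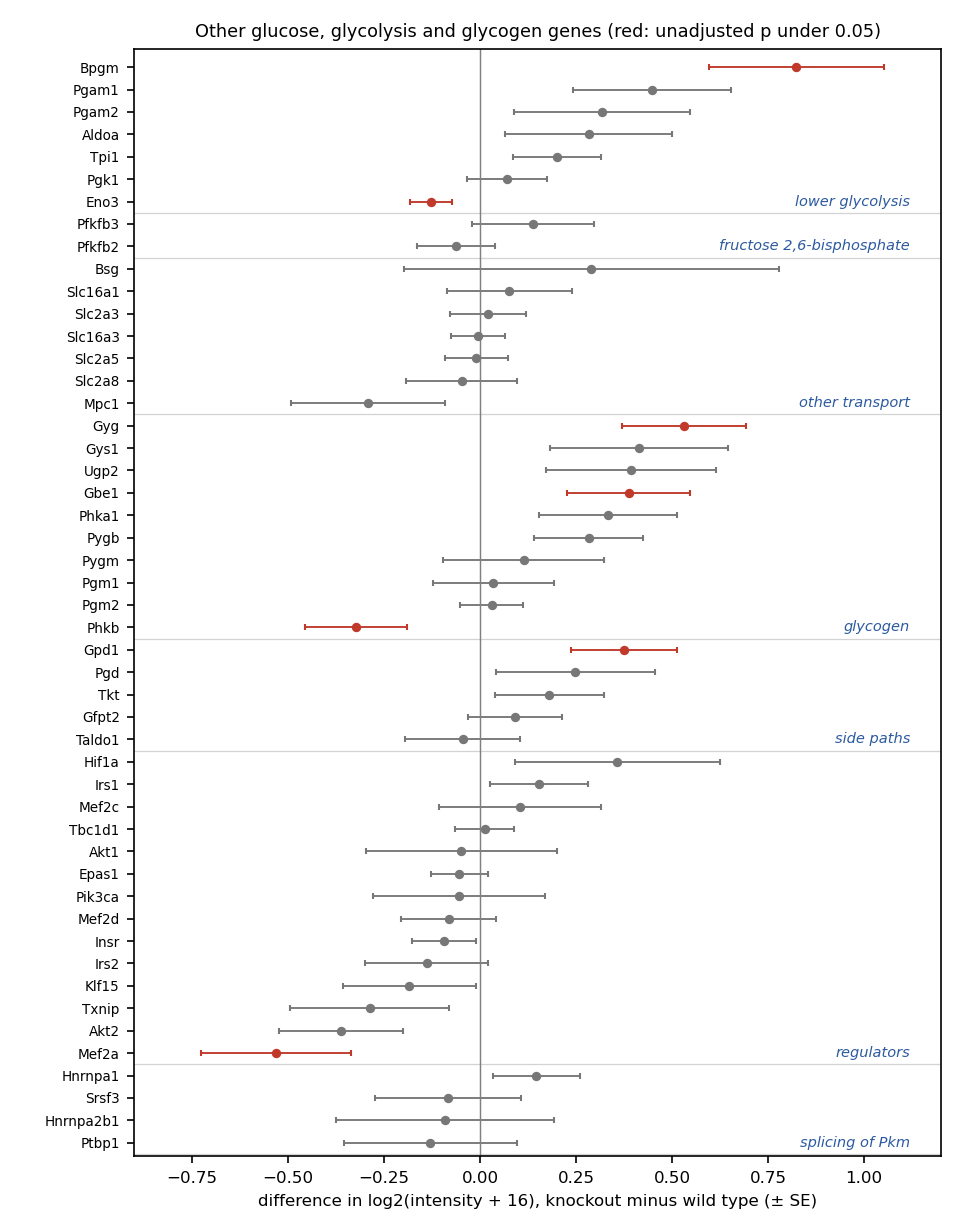
Difference in log2(intensity + 16), eNOS knockout minus wild type, with limma standard errors for the 49 tested genes of 7 lists of glucose use, in red where the unadjusted p was under 0.05. Bpgm, Gyg, Gbe1 and Gpd1 lie to the right and Mef2a, Phkb and Eno3 to the left, and no gene passed an adjusted p of 0.05.

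Pfkp had the smallest p of the members, and among 8868 other tested genes the 5 whose log2 values were most like it over the 7 arrays were Myo1d, Ccn2, Hbs1l, Iqgap1 and Apcdd1, with Pearson's r of 0.987, 0.982, 0.981, 0.980 and 0.980. Ccn2, the connective tissue growth factor, read 37804, 15790 and 39938 on knockout M4, M10 and M140, and 9837, 6364, 5514 and 9912 in wild-type mice M23, M125, M128 and M158. The order of the knockout arrays differed from that of Pfkp only at the top, where M140 and not M4 was highest. All these values share the same 7 arrays, and the correlations describe the pattern with no test.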

How the data were processed

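Total RNA of the left ventricle was measured on Affymetrix MOE430A arrays, per the labels and the file headers of the experiment sheets. The authors deposited intensity values on a linear scale, and no source used here states the software, background correction or scaling behind them. The experiment sheets, deposited text with other information and no measurement, gave the hybridization days, coded 1 to 4: M140 and M128 shared day 1, M125 was alone on day 2, M4 with M10 fell on day 3, and M23 with M158 on day 4. Chip lots followed the days.

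Control probe sets (64 of 22690) were left out, and log2(intensity + 16) was taken. Probe sets were named from the platform annotation, checked against RefSeq gene numbers. A probe set was tested if above the 40th percentile of its array on at least 3 arrays. A value at 98% or more of an array's highest value was taken as at the upper limit. A gene was represented by its brightest tested probe set below that limit, or its brightest one where none was. Groups were compared with limma 3.58.1 in R 4.3.3 (lmFit, eBayes with trend, two-sided, Benjamini-Hochberg over 13836 probe sets, threshold 0.05), which was tested on simulated data. Isoform differences were compared by exact permutation of absolute mean differences. Named were all members and the 3 genes of smallest p in each of the 7 lists of glucose use, though not in the marker lists. Also named were the 5 genes most like the member of smallest p, and Nos3, Myl7 and Alas2 as checks. Aldoa and Tpi1, of the lower glycolysis list, and the cell type markers other than these checks were named after their values were seen. Members and lists were chosen with earlier results of these arrays known. Alternatives are given in the closing section.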

Additional observations from a re-analysis of the deposited data

Results flagged for a closer look

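Slc2a1 (1434773_a_at) read 3766 on wild-type M23, far from the other 3 wild-type arrays at 2822 to 2923. Its gap to the nearest of them was 0.879 of the wild-type range on the log2 scale, above Dixon's 95% critical value for 4 samples. This was 1 of 17 values examined in this way, and chance gives about 1 in 20. Wild-type M23 also had the lowest Gapdh ratio, 0.0978, and the part of RNA quality in its value was not tested.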

How the results depend on the processing

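The count of member probe sets past an adjusted p of 0.05 was 0 with every alternative run except limma array weights, where it was 1 (Pfkp), and the other genes of glucose use then gave 3. By an unadjusted p under 0.05 the counts were 3 and 7, and by groups that did not overlap 3 and 5. Leaving out each array gave 0 for the members and 0 to 1 for the other genes. Hk1 minus Hk2 kept its direction throughout. It was 1.03 to 1.33 with 1 array left out, 1.36 without M10 and M125 and 1.15 without M23 and M158, where the exact permutation p cannot fall under 0.0667 (2 knockout against 4 wild-type arrays) or 0.1 (3 against 3). With hybridization day as a block, Pfkp minus Pfkm was 2.35 and Pfkl minus Pfkm 0.98, and Hk2 and Pkm turned to 0.36 and 0.073, since only knockout M140 and wild-type M128 share a day. Hk2 was 0.045 without M23 and M158, and Pkm 0.074 without M10 and M125. With 1 array left out, Pfkl (1439148_a_at) ran from -0.036 to 0.36, Pfkm from -0.19 to 0.17 and Pfkl minus Pfkm from -0.037 to 0.47. The cause was not tested. Slc2a1, Slc2a4, Hk1, Pfkp and Ldha kept their direction in every alternative. No paired analysis was possible because the mouse numbers differ between the groups. The upper limit hides any change of Ldhb, and dim probe sets of Hk1 and Pfkp limit what a second reading can show.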
